A study of Mus musculus with 6 samples.

Results

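Interferon-stimulated genes were examined in colonic organoids, 3-dimensional cultures of colon epithelium grown in Matrigel. The 40 genes are a list of well-known interferon targets, and each was found by its symbol among the 40840 gene rows of the deposited expression table. Organoids came from 3 untreated control mice and from 3 mice that had been given dextran sodium sulfate (DSS), which injures the colon epithelium. All 6 mice were C57BL/6 and wt, and each gave 1 library. Labels describe 2 courses of 2.5% DSS in drinking water, 5 days each and 2 weeks apart, the first of them at an age of 10 weeks, and list no age for the control mice. Cultures were started 14 days after DSS and RNA was taken on day 4 of culture, so every value describes young cultures in a medium with L-WRN conditioned medium, and not the inflamed colon itself. Values are TPM (transcript abundance scaled to a common library total), which keep no sequencing depth, so no counting interval can be given. RSEM divides reads that fit several copies by estimation, which leaves Oas1a, Ifit1 and Ifit3 uncertain because Oas1g, Ifit1bl1 and Ifit3b are close relatives.

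Interferons are secreted proteins that warn cells of infection. Type I and type III interferons act through JAK kinases on a complex that contains Stat2 and Irf9 and binds interferon-stimulated response elements, while interferon gamma acts mainly on gamma-activated sites. The induced genes encode sensors of foreign nucleic acid, proteins that block viral translation and replication, GTPases that attack intracellular parasites, and brakes on the pathway itself. In the gut the epithelium is known to answer type III interferon in particular.

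The 40 genes varied widely among the control mice. As a group they were high in control replicate 3, intermediate in control replicate 2 and low in control replicate 1, and in the 3 DSS libraries their median lay somewhat under that of control replicate 1. The summed level of the 40 genes was 790.7, 1672 and 4239 TPM in control replicates 1, 2 and 3, and 529.3, 698.4 and 673.7 TPM in DSS replicates 1, 2 and 3. Only 1 member, Ifi27, passed the test between groups, and it fell. Members are not replicates of one another, since all are read from the same 6 libraries.

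Stretches of promoter are shown for 8 members, chosen by role among those that hold a match to the response element before their start. Gbp7, Gbp3, Stat2, Irgm1 and Rsad2 also hold such a match and are not shown. Promoters were taken from RefSeq (build GRCm38.p6, another build than the GRCm39 the authors mapped to) and matched by symbol, which gave 29 of the 40 members. Each entry covers 250 bases before the start of transcription and 50 after it. The core of the response element was searched as GAAA, any 2 bases and GAAA, and that of the gamma-activated site as TTCNNNGAA, on both strands. Isg15 is shown at chr4:156200840-156200931 (minus strand), Ifit1 at chr19:34640750-34640848 (plus strand) and Ifit3 at chr19:34583338-34583451 (plus strand). Oas1a is at chr5:120907526-120907580 (minus strand), Oas3 at chr5:120777690-120777769 (minus strand) and Bst2 at chr8:71537552-71537637 (minus strand). Gbp2 is at chr3:142620569-142620648 (plus strand) and Igtp at chr11:58199487-58199555 (plus strand). Capitals mark every match to the response element core on either strand, and all sequences run 5′ to 3′ towards the gene.
Isg15: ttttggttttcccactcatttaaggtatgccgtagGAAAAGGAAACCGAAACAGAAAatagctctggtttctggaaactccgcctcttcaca
Ifit1: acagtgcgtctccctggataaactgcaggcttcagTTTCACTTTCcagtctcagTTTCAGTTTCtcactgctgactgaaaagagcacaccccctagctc
Ifit3: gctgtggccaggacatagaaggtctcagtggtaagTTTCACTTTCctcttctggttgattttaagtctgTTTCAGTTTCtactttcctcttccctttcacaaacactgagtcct
Oas1a: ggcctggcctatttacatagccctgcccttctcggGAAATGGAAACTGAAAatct
Oas3: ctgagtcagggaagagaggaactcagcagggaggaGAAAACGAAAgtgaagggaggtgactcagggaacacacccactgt
Bst2: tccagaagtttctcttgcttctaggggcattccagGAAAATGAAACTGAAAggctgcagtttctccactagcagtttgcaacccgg
Gbp2: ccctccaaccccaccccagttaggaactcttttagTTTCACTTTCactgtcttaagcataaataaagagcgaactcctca
Igtp: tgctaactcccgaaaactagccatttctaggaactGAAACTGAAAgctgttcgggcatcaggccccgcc

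The response element core was present in 15 of the 29 member promoters (51.7%) and in 3.99% of the 27025 genes of the promoter table. Isg15 held 3 overlapping matches in a row. Ifit1 and Ifit3 each held 2 separate ones. The gamma-activated core was present in 7 of the 29 (24.1%) and in 9.55% of all genes, and 5 members held both. These matches describe letters in the window and were not tested as binding sites.

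The label of epithelial organoids was checked against marker genes before the comparisons. Summed epithelial markers (9 genes) were 8964 TPM in DSS replicate 1 and 13305 to 14991 TPM in the other libraries. Lymphocyte markers (15 genes), endothelial markers (6 genes) and fibroblast markers (9 genes) summed to at most 0.69, 0.58 and 17.9 TPM, the last mostly Vim in DSS libraries. Of 16 myeloid markers, 4 of 7 tested rose in DSS organoids (Lyz2, Tyrobp, Fcer1g and Itgam), beside 6.45% of all tested genes. The other tested ones did not pass: Cd68 was higher without overlap, Cd14 overlapped and Mrc1 was lower without overlap. Mrc1 was 2.62 to 3.45 TPM in control and 0.16 to 1.27 TPM in DSS libraries. The sum of all 16 was 58.3 to 78.4 TPM in control libraries, compared with 209.2 to 353.2 TPM in DSS libraries. Most of the DSS sum was Lyz2, at 122.6 to 226.8 TPM. Ptprc, carried by all white blood cells, was 0.05 to 0.08 TPM in control and 0.30 to 0.47 TPM in DSS libraries. Vim, Epcam and Cdx2 also rose. Of the 9 epithelial markers, 6 had a negative log2 fold change, and Krt19 was lower without overlap, but none of these passed. Of 6 markers of plasmacytoid dendritic cells, the specialised interferon producers, Bcl11a and Irf8 were tested and both rose, beside the same 6.45%. The sum of the 6, mostly Irf8, was 21.9 to 31.1 TPM in control and 55.3 to 68.9 TPM in DSS libraries. Siglech and Klra17, which define these cells, were listed at 0 in every library apart from 0.06 TPM of Siglech in control replicate 1. In control replicates 1, 2 and 3 the myeloid sum was 67.3, 58.3 and 78.4 TPM, of which Cd14 gave 52.6, 50.7 and 69.8 TPM and Lyz2 5.19, 2.04 and 1.09 TPM. The sum was thus highest, and Lyz2 lowest, in the library richest in interferon-stimulated transcripts, and the part of these cells in the members' levels was not tested. Across genes, DSS replicate 1 correlated less with DSS replicates 2 and 3 (r = 0.941 and 0.966) than those did with each other (r = 0.981). RNA of whole cultures cannot tell fewer responding cells from less RNA in each cell.

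Of the 40 members, 36 had a mean of at least 1 TPM over the 6 libraries and were tested. Mx1, Gbp2, Gbp7 and Iigp1 lay under that filter. Oas2, Oas3, Ifit2, Ifit3, Mx2, Rsad2, Ifi44, Usp18, Herc6 and Gbp3 passed it only through control libraries, with DSS means under 1 TPM. Control replicate 3 was the highest control library for 35 of the 36 tested members, where 30.8% of all 11643 tested genes had their highest control value there. The exception was Ifi27, with 191.4 TPM in control replicate 2 and 183.9 TPM in control replicate 3. Control replicate 1 was the lowest control library for 36 of 36. Both held for 35 members, beside 18.4% of all tested genes. On the log2(TPM + 1) scale the tested members lay above control replicate 1 by a median of 1.08 in control replicate 2 and 2.73 in control replicate 3. The same difference over all tested genes was −0.03 and −0.05, though TPM are scaled to a common total in every library.

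**Figure D1:**
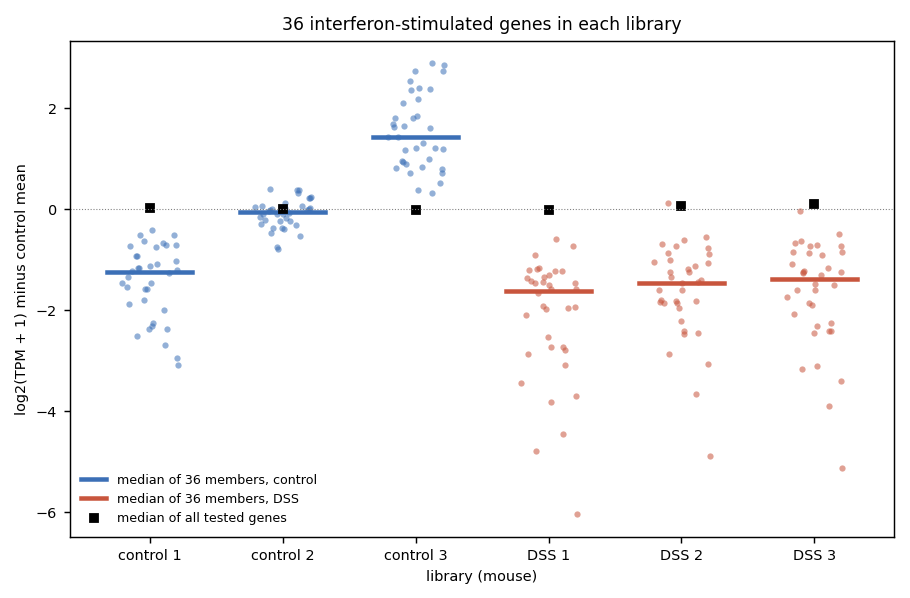
Difference of each tested member from its own control mean, in log2(TPM + 1), for the 3 control (blue) and 3 DSS (red) libraries; each point is 1 of 36 genes, bars are medians over genes and black squares the median over all tested genes. The control medians spread from −1.24 to 1.43, while the DSS medians sit between −1.62 and −1.39.

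The factors that carry the signal showed this pattern. Irf7, the factor that amplifies the interferon response, was 17.6, 70.6 and 238.0 TPM in control replicates 1, 2 and 3 and 8.33, 18.6 and 15.2 TPM in DSS replicates 1, 2 and 3. The groups overlapped only through control replicate 1. Stat2 was 5.45, 12.2 and 31.4 TPM in control libraries, compared with 3.95, 4.12 and 4.02 TPM in DSS libraries. Its 3 DSS values lay closer together than any pair of control values. Irf9, its DNA-binding partner, was 16.9, 41.6 and 62.3 TPM in control libraries, compared with 8.52, 16.4 and 14.4 TPM in DSS libraries. Both were lower in every DSS library than in any control library, yet neither passed the test (limma adjusted p = 0.122 for Stat2 and 0.104 for Irf9).

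Isg15, a ubiquitin-like protein that is attached to other proteins, had the largest control SD of log2(TPM + 1) among the tested members. It was 14.2, 151.0 and 926.0 TPM in control replicates 1, 2 and 3, a 65.4-fold range within a single group. In DSS replicates 1, 2 and 3 it was 0.96, 3.35 and 2.67 TPM. The groups did not overlap, and the log2 fold change of −5.35 (SE 1.35) was the largest among members, but it missed the threshold (limma adjusted p = 0.0536). Control replicate 1 alone lay 6.08-fold above the DSS mean. Usp18, which removes Isg15 from proteins and also restrains the type I receptor, was 0.78, 15.1 and 90.8 TPM in control libraries, compared with 0.06, 0.65 and 0.31 TPM in DSS libraries. Like Isg15 it spanned a wide control range, and all 3 DSS values lay under it. Herc6, the Isg15 ligase of the mouse, was 0.79 to 4.65 TPM in control libraries, compared with 0.22 to 0.30 TPM in DSS libraries. Trim25, a ubiquitin ligase that aids RNA sensing, was 54.3, 73.1 and 94.9 TPM against 23.4, 47.0 and 43.7 TPM. It had the narrowest control range of the members by rank. All 4 genes of this system were lower without overlap, beside 15.3% of all tested genes (36.4% without overlap in either direction), and none passed (limma adjusted p from 0.0536 to 0.136).

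**Figure D2:**
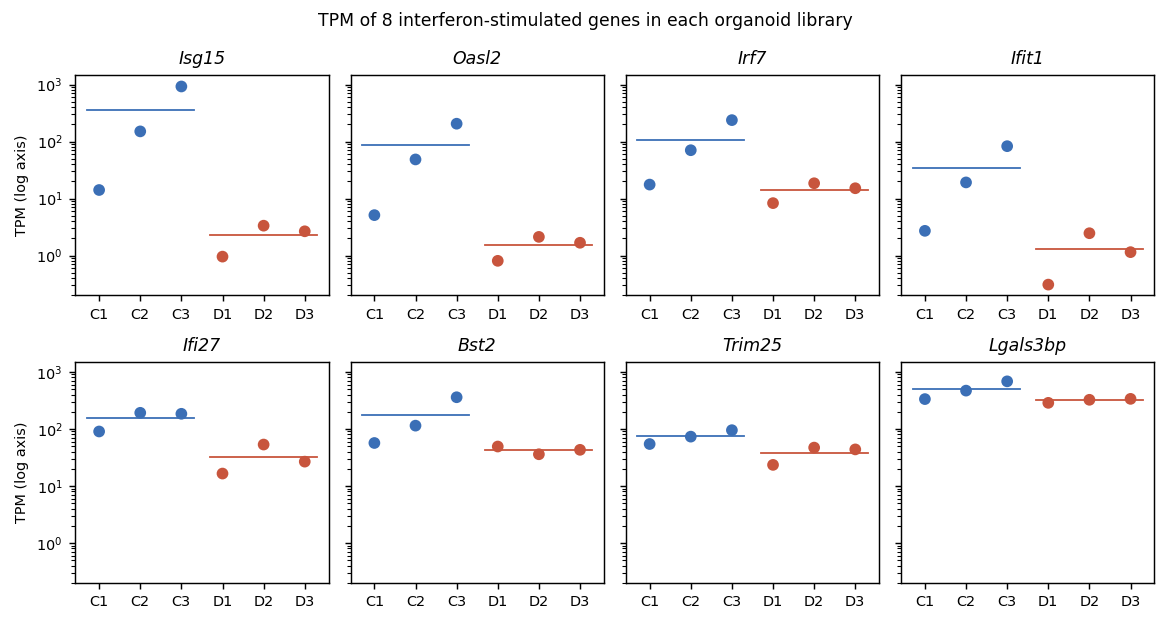
TPM on a log axis for 8 members in control replicates 1 to 3 (C1 to C3, blue) and DSS replicates 1 to 3 (D1 to D3, red); each point is 1 library and lines are group means. Isg15 runs from 14.2 to 926.0 TPM among controls and from 0.96 to 3.35 TPM among DSS libraries, whereas Lgals3bp stays between 286.3 and 682.2 TPM.

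Among the oligoadenylate synthetase genes, some of whose products switch on an RNA-degrading enzyme, Oasl2 stood out. It was 5.13, 48.6 and 205.9 TPM in control libraries, compared with 0.81, 2.13 and 1.68 TPM in DSS libraries (log2 fold change −4.01 with SE 1.15, adjusted p = 0.0742 by limma). Every DSS value lay under the lowest control value. Oas1a was 39.1, 99.6 and 222.5 TPM in control libraries, compared with 23.8, 35.4 and 33.2 TPM in DSS libraries. Oasl1, which in the mouse restrains translation of Irf7, was 14.0, 41.3 and 109.6 TPM against 2.80, 19.0 and 11.3 TPM. It was among the few members with a wide range in DSS libraries as well. Oas2 and Oas3 were 0.08 and 0.42 TPM in control replicate 1 and reached 21.0 and 34.8 TPM in control replicate 3. In DSS libraries they stayed at or under 0.35 TPM.

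Ifit proteins bind foreign RNA and block its translation. Ifit1 was 2.72, 19.2 and 83.1 TPM in control libraries, compared with 0.31, 2.47 and 1.15 TPM in DSS libraries, without overlap (log2 fold change −3.11 with SE 1.05, adjusted p = 0.107 by limma). Ifit3 was 0.41, 4.08 and 53.1 TPM in control libraries, compared with 0.06, 0.33 and 0.53 TPM in DSS libraries, so DSS replicate 3 reached above control replicate 1. Ifit2 was the flattest, with 1.01, 1.21 and 4.37 TPM against 0.29, 0.13 and 0.24 TPM. The sensors Ifih1 (MDA5), Dhx58 (LGP2) and Zbp1 were 9.79 to 27.95, 4.15 to 25.2 and 0.99 to 29.4 TPM in control libraries. In DSS libraries they were 5.40 to 9.65, 2.67 to 4.75 and 0.63 to 2.58 TPM, and of the 3 only Ifih1 was separate.

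Direct antiviral effectors differed widely in level. Bst2 (tetherin), which holds budding virus at the membrane, was 56.6, 114.0 and 358.9 TPM in control libraries, compared with 49.1, 35.9 and 42.9 TPM in DSS libraries. Control replicate 1 lay within 1.33-fold of the DSS mean. Rtp4 was 6.87, 58.3 and 191.4 TPM in control libraries, compared with 0.63, 5.15 and 4.00 TPM in DSS libraries (log2 fold change −3.60 with SE 1.14, adjusted p = 0.0914 by limma). Its groups did not overlap, although DSS replicate 2 came near control replicate 1. Eif2ak2 (PKR), a kinase that stops translation on double-stranded RNA, was 14.8 to 38.9 TPM against 7.95 to 13.7 TPM. Rsad2 (viperin), Ifi44 and Mx2 were 0.47, 0.15 and 0.05 TPM in control replicate 1 and reached 14.3, 39.1 and 6.40 TPM in control replicate 3. They stayed at or under 0.29 TPM in DSS libraries, and Ifi44 overlapped through control replicate 1. Xaf1 ran from 1.48 to 29.2 TPM and Cmpk2, a mitochondrial nucleotide kinase, from 1.24 to 16.6 TPM in control libraries. With DSS they reached at most 1.79 and 2.17 TPM, so both overlapped. Samd9l was the tested member whose log2 fold change lay nearest 0, with 10.6, 20.3 and 41.8 TPM in control libraries, compared with 6.99, 23.0 and 20.4 TPM in DSS libraries. Mx1 is truncated in C57BL/6 mice, and it was listed at 0.04 to 0.85 TPM in all 6 libraries.

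Ifi27, which encodes a small hydrophobic protein strongly induced by interferon, was the 1 member that fell. It was 90.1, 191.4 and 183.9 TPM in control replicates 1, 2 and 3 and 16.5, 53.1 and 26.6 TPM in DSS replicates 1, 2 and 3. The groups did not overlap, and control replicates 2 and 3 were nearly alike, unlike for the other members. The log2 fold change was −2.32 (SE 0.46, limma adjusted p = 0.0301). The call ended without control replicate 1, 2 or 3 (adjusted p = 0.0650, 0.132 and 0.106), without DSS replicate 3 (0.116), and with no filter on low values (0.0593). Ifi35 was 42.6, 68.6 and 130.2 TPM in control libraries, compared with 30.4, 31.2 and 28.9 TPM in DSS libraries (adjusted p = 0.0787). Lgals3bp, a secreted glycoprotein and the most abundant member, was 333.1, 468.9 and 682.2 TPM in control libraries, compared with 286.3, 323.8 and 336.3 TPM in DSS libraries. DSS replicate 3 thus reached above control replicate 1.

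Parp9, Dtx3l and Parp14, which handle ADP-ribose marks and ubiquitin in the interferon response, overlapped between groups. Parp9 was 14.1, 27.7 and 54.3 TPM in control libraries, compared with 14.4, 14.8 and 17.5 TPM in DSS libraries, all 3 of which lay above control replicate 1. Of the GTPases that act against parasites inside cells, the 3 tested, Irgm1, Igtp and Gbp3, also overlapped. Irgm1 was 15.8, 29.2 and 86.6 TPM in control libraries, compared with 22.5, 13.9 and 17.8 TPM in DSS libraries, and Igtp 3.53, 10.9 and 41.2 TPM against 2.08, 3.34 and 5.23 TPM. Gbp3 reached 9.86 TPM in control replicate 3 and was listed at 0 in DSS replicates 2 and 3. Gbp2 and Gbp7 were at most 1.84 and 1.26 TPM, and Gbp2 was lower in every DSS library. Iigp1 was listed at 0 in the 3 control libraries, control replicate 3 included, and at 0.20, 0.04 and 0.13 TPM in DSS libraries, against the direction of every tested member.

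Tested between groups, the members had negative log2 fold changes in 36 of 36 cases, from −5.35 for Isg15 to −0.46 for Samd9l, with a median of −1.49. For members with a DSS mean under 1 TPM, the filter itself favoured a negative sign and a lack of overlap. With no filter, 39 of 40 were negative. The median over all tested genes was 0.05, and 55.7% of them were above 0. Of these 36, 1 passed as lower (2.78%), where 3.89% of all tested genes passed as lower, and 0 passed as higher, where 6.45% did, or 10.3% in either direction (limma with Benjamini-Hochberg adjustment). At an unadjusted p under 0.05, 22 members were lower and 0 higher, beside 11.5% and 18.1% of all tested genes, or 29.6% in either direction. DSS values lay wholly under the control values in 20 members (55.6%), beside 15.3% of all tested genes. They lay under control replicate 3 in all 36 tested members, under control replicate 2 in 34 and under control replicate 1 in 20, beside 23.5%, 23.8% and 26.8% of all tested genes. Without control replicate 3 the median was −0.81. Without both control replicates 2 and 3, a comparison added after seeing the data, it was −0.34, with 31 of 36 negative and 0 past the threshold, although this comparison called 0 genes in the whole table. It holds a single control library, whose spread is assumed to equal that of the DSS libraries.

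**Figure D3:**
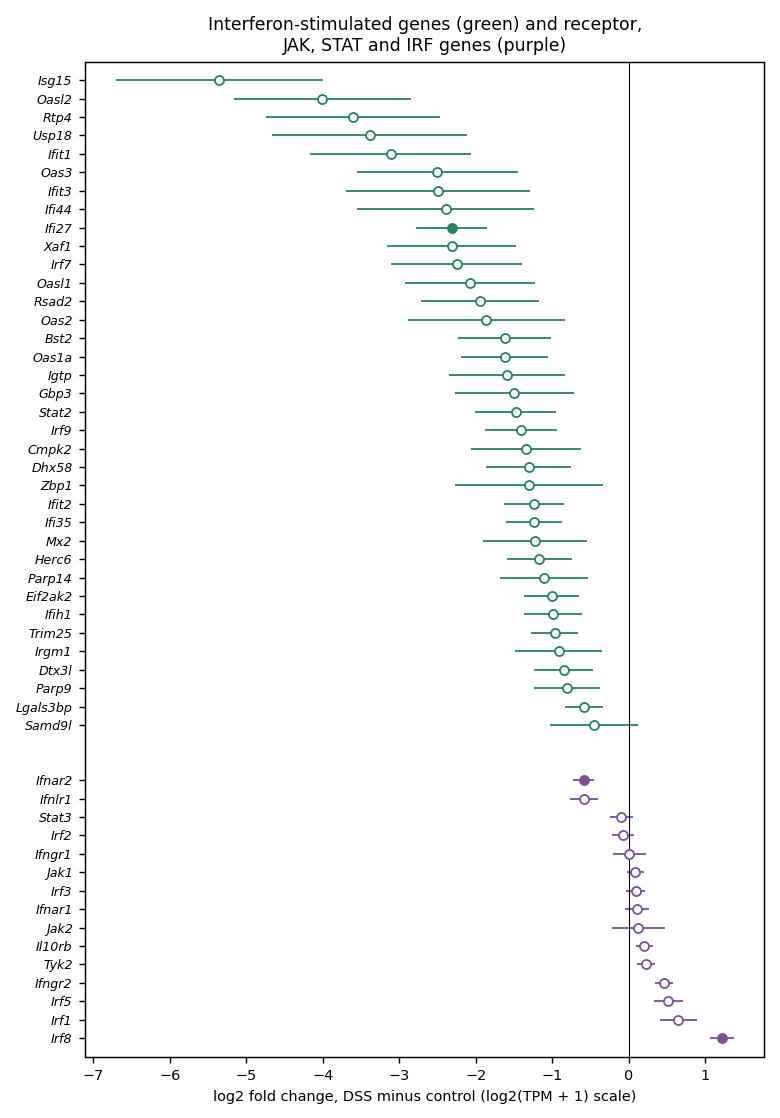
Log2 fold change, DSS minus control, on the log2(TPM + 1) scale, with limma's standard error as bars, for 36 tested members (green) and for 15 receptor, JAK, STAT and IRF genes (purple); filled points passed an adjusted p of 0.05. All green points lie left of 0 with wide bars, and only Ifi27 is filled, whereas most purple points lie near 0 with short bars.

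The spread within groups set the members apart from most of the transcriptome. The SD of log2(TPM + 1) had a median of 1.39 among the 3 control libraries and 0.33 among the 3 DSS libraries over the 36 tested members. Over all tested genes it was 0.12 and 0.23, the other way round. The DSS spread was the larger in 2 members, Ifi27 and Trim25, and in 75.8% of all tested genes. Ranked by control spread among 11643 genes, the members had a median rank of 54.5, from 3 for Isg15 to 743 for Trim25. Of the 50 genes with the widest control spread, 17 were members and 13 more belonged to the lists of interferon pathway genes described next. These ranks describe 3 mice, and whether the difference in spread belongs to the groups or to control replicates 2 and 3 cannot be told apart.

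**Figure D4:**
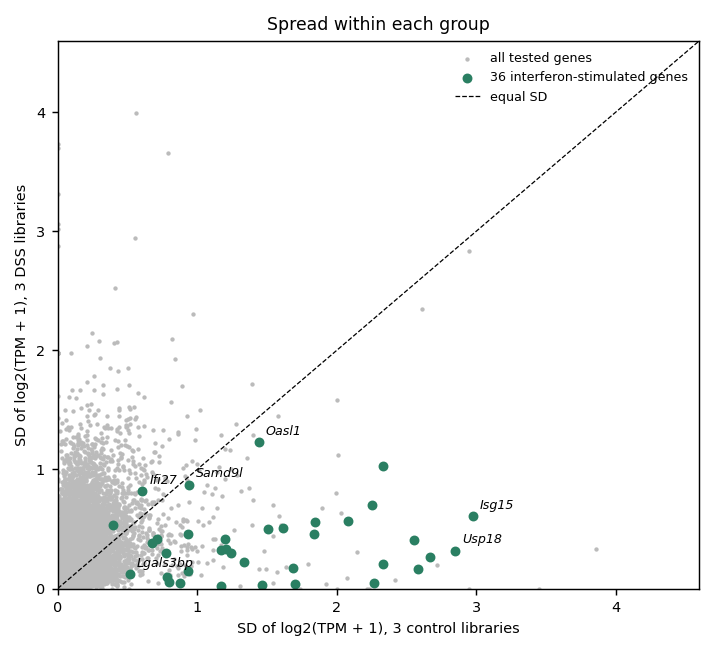
SD of log2(TPM + 1) among the 3 control libraries (horizontal) and among the 3 DSS libraries (vertical) for all 11643 tested genes (grey) and 36 members (green); the dashed line marks equal SD. Members lie far to the right, up to 2.97 for Isg15, and all but Ifi27 and Trim25 lie under the line.

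Within the DSS group, DSS replicate 1 was the lowest library for 28 of the 36 tested members, beside 47.3% of all tested genes, and it lay under all 3 control libraries for 32, beside 41% of all tested genes. DSS replicate 2 was the highest DSS library for 20 of 36, beside 34.9%. The range inside the group was narrow for Stat2 (3.95 to 4.12 TPM) and Lgals3bp (286.3 to 336.3 TPM). It was wide for Oasl1 (2.80 to 19.0 TPM), Samd9l (6.99 to 23.0 TPM) and Ifi27 (16.5 to 53.1 TPM).

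Interferon and receptor genes did not show the range of the members among controls. Of 21 interferon genes, 20 were listed at 0 in all 6 libraries, among them Ifnb1, Ifng, Ifnl2 and Ifnl3, and Ifnz did not exceed 0.10 TPM. Among 6 receptor genes, Ifnar2, a chain of the type I receptor, fell from 15.2 ± 2.0 to 9.73 ± 0.94 TPM (mean ± SD, n = 3 each, log2 fold change −0.59, SE 0.14, limma adjusted p = 0.0449). Ifnlr1, the specific chain of the type III receptor, was 13.0, 14.6 and 15.0 TPM in control libraries, compared with 6.91, 11.6 and 9.28 TPM in DSS libraries, separate but not past the threshold (adjusted p = 0.0939). Its control values were nearly alike, unlike those of the tested members. Ifnar1, Il10rb, Ifngr1 and Ifngr2 had log2 fold changes of 0.11, 0.20, 0.01 and 0.45 and did not pass. The signs of Ifnar1 and Ifngr1 turned under another scaling.

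Of 9 JAK, STAT and IRF genes reported outside the member list, 1 rose and none fell, beside 6.45% and 3.89% of all tested genes. At an unadjusted p under 0.05 by limma, 3 were higher and 0 lower, beside 18.1% and 11.5%. The members Stat2, Irf9 and Irf7 were lower at that level. Jak1, Jak2, Tyk2, Stat3, Irf2 and Irf3 had log2 fold changes between −0.10 and 0.23 and did not pass. Irf8, which directs myeloid and lymphoid cells, rose from 23.8 ± 3.9 to 56.3 ± 6.9 TPM (adjusted p = 0.0112 by limma, log2 fold change 1.21 with SE 0.15). Irf1 and Irf5 were separate and higher with DSS but did not pass (adjusted p = 0.138 and 0.132). The summed myeloid markers were also higher with DSS, and their part in these values was not tested.

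Among 10 inhibitors of the pathway 2 rose, Pias3 and Irf2bp2, beside 6.45% of all tested genes. Their log2 fold changes were 0.61 and 0.53 (limma adjusted p = 0.0405 and 0.0412). Neither call held with no filter, after quantile scaling, with the replicate block, or without any of the control replicates or DSS replicate 3, and 1 of the 2 held after median-ratio scaling. Socs1, the classical feedback inhibitor, was 2.21, 2.25 and 3.60 TPM in control libraries, compared with 1.76, 1.60 and 3.60 TPM in DSS libraries. It was no higher in control replicate 3 than in DSS replicate 3. Of 12 tested genes of nucleic acid sensing, 2 fell, beside 3.89% of all tested genes. These were Sting1, the adaptor of DNA sensing, and Adar, an RNA-editing enzyme with an interferon-driven form. Mean Sting1 levels were 13.8 ± 1.9 TPM in control and 7.67 ± 1.37 TPM with DSS (adjusted p = 0.0387 by limma, log2 fold change −0.78 with SE 0.17) and those of Adar 27.8 ± 7.3 and 14.2 ± 2.4 TPM (log2 fold change −0.90 with SE 0.21, adjusted p = 0.0446). Ddx58 (RIG-I), Mavs, Tbk1 and the other tested members of that list did not pass.

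A list of 50 further interferon-induced genes shared part of the pattern of the members. Control replicate 3 was the highest control library for 37 of its 37 tested genes, beside 30.8% of all tested genes. The log2 fold change was negative in 28 of them and positive in 9, with a median of −0.85. At an unadjusted p under 0.05 by limma, 14 of them were lower and 1 higher, beside 11.5% and 18.1% of all tested genes. At the threshold none of them fell and 1 rose, beside 3.89% and 6.45%. That gene, Phf11b, was 0.26, 0.71 and 0.92 TPM in control libraries, compared with 17.9, 5.21 and 16.2 TPM in DSS libraries (log2 fold change 2.98 with SE 0.44, adjusted p = 0.0156 by limma). Of 13 further interferon-inducible GTPase genes only Irgm2 and Ifi47 were tested. Ifi47, which encodes a GTPase of the same family as Irgm1 and Igtp, rose from 0.24, 0.29 and 0.59 TPM to 6.35, 4.09 and 3.97 TPM (adjusted p = 0.0082 by limma, log2 fold change 2.06 with SE 0.23). Tgtp2 was listed at 0 in control and at 0.17, 0.13 and 0.14 TPM in DSS libraries. Phf11b, Ifi47, Tgtp2 and Iigp1 were thus higher in each DSS library than in any control library. They are named together after their values were seen, and Tgtp2 and Iigp1 lay under the filter, as did Gvin1 (higher) and Gbp9 (lower). Of the 37 tested further interferon-induced genes, 1 was wholly higher and 12 wholly lower, beside 21.1% and 15.3% of all tested genes. The summed myeloid markers were also higher in DSS libraries, and their part in these values was not tested.

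Over all pathway lists, 5 of 76 tested genes rose (6.58%) and 3 fell (3.95%), shares near the 6.45% and 3.89% of all tested genes. Leaving out control replicate 1, 2 or 3 turned the 5 into 2, 0 or 2, and leaving out DSS replicate 1, 2 or 3 turned them into 8, 6 or 1. The 3 became 0 without any of the control replicates or DSS replicate 3. Without DSS replicate 1 or 2 the count was again 3, but without DSS replicate 2 the genes were not the same. It then held 1 gene of nucleic acid sensing, not 2, and 1 of the further interferon-induced genes.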

How the data were processed

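Organoid RNA of 3 control and 3 DSS-treated mice was sequenced. The authors deposited TPM values per gene, made with Trim Galore 0.6.7 and cutadapt 3.5, STAR (2.7.7a for the reference, 2.7.10a for mapping) and RSEM 1.3.1 on GRCm39. Strand marking is not given in the sources used here, so overlapping antisense transcripts could contribute. TPM keeps no depth, so precision rests on 3 mice per group.

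Values were analysed as log2(TPM + 1), where fold changes of low genes are understated. Genes with a mean of at least 1 TPM (11643 of 40840) were compared with limma 3.58.1 in R 4.3.3 (mean-variance trend, two-sided), with Benjamini-Hochberg adjusted p-values over all of them and a threshold of 0.05. The procedure was tested on simulated data in which every gene had the same spread. That differs from the members, whose control spread was wide, so it does not show how the test behaves for them. The naming rule took every member, the receptor, JAK, STAT and IRF genes, pathway genes past the threshold, and named markers. Some genes of the JAK, STAT and IRF list are not reported here, and its counts leave them out. Other pathway genes and markers were chosen after their values were seen. Members and lists were chosen with earlier results of these data known, so no list was tested as a set. Alternatives were a pseudocount of 0.1, no filter, median-ratio and quantile scaling, a replicate block and leaving out each library.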

Additional observations from a re-analysis of the deposited data

How the results depend on the processing

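All 36 tested members kept a negative log2 fold change under the changes of pseudocount, scaling and block, as did 39 of 40 with no filter, and their median ran from −2.005 to −1.38 there and from −2.16 to −0.81 when 1 library was left out. Samd9l turned positive without control replicate 3 (0.025) or DSS replicate 1 (0.046), within a range of −0.91 to 0.046. Without both control replicates 2 and 3, added after seeing the data, the median was −0.34 and Zbp1, Samd9l, Parp9, Parp14 and Irgm1 were at 0.26, 0.46, 0.12, 0.11 and 0.16. That comparison gave 0 calls in every list and over all genes.

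The 1 member past the threshold as lower became 2 with a pseudocount of 0.1 (Isg15 added), 0 with no filter, and 0 to 3 when 1 library was left out. The 3, without control replicate 1, were Oasl2, Xaf1 and Isg15. The labels do not say whether replicate numbers pair the mice, and correlations of deviations cannot settle it. These were 0.20, 0.031 and 0.035 for same-numbered libraries and ran from −0.18 to 0.15 for the others. With the replicate block 6 members passed (Irf9, Oasl1, Rtp4, Isg15, Trim25 and Ifi27). No member passed as higher under any alternative.

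Over all genes, 751 passed as higher and 453 as lower. These became 456 and 303 with no filter, 346 and 185 with the replicate block, 634 and 582 after median-ratio scaling and 564 and 606 after quantile scaling. When 1 library was left out they ran from 19 to 1691 and from 11 to 807. Pathway genes past the threshold as higher were 3 with quantile scaling and 3 with the replicate block, and 0 to 8 when 1 library was left out. Those lower were 0 with no filter and 0 to 3 when 1 library was left out. Cell type markers past the threshold as higher ran from 2 to 12 when 1 library was left out, and those lower were 1 after median-ratio or quantile scaling and 0 to 1 when 1 library was left out.

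Ifnar1 turned to −0.020 after quantile scaling and ran from −0.0088 to 0.19 when 1 library was left out. Ifngr1 turned to −0.047 and −0.032 after median-ratio and quantile scaling and ran from −0.19 to 0.25. Jak2 ran from −0.18 to 0.55, Stat3 from −0.19 to 0.048 and Irf2 from −0.20 to 0.043. Without both control replicates 2 and 3, Ifnar1 was −0.063 and Irf3 −0.10. The cause of these turns was not tested. Depth is unknown, so precision of genes under 1 TPM cannot be given.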

Other observations

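Of the 50 genes with the widest control spread, 20 were in neither the member list nor the pathway lists, and some of them shared the pattern of the members. They were chosen after their values were seen. Lgals9, which encodes a galectin, was 37.3, 113.1 and 297.5 TPM in control replicates 1, 2 and 3 and 49.2, 31.3 and 39.8 TPM in DSS replicates 1, 2 and 3. Slfn4 was 3.23, 7.45 and 61.0 TPM in control libraries, compared with 3.40, 19.4 and 10.8 TPM after DSS, so that DSS replicate 2 lay above control replicate 2. Ly6c2 was 2.55, 5.80 and 43.7 TPM against 0.34, 2.37 and 0.87 TPM. Others did not share it, such as Sncg, which was 10.6, 0.92 and 0.27 TPM in control libraries.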
